A study of Mus musculus with 8 samples.

Results

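The genes of the mouse major histocompatibility complex (MHC, named H-2 in the mouse) were examined in chromatin accessibility data from DN3 thymocytes, immature T cells of the thymus that are testing a new T-cell receptor beta chain. The members were the protein-coding genes of chr17:33500000-37500000 (build mm10, GRCm38) whose symbol begins with H2-, together with Tap1, Tap2, Tapbp, Psmb8 and Psmb9. This rule gave 40 of the 21774 protein-coding genes on the chromosomes used: 25 class I genes, 4 class II genes, 5 class II-like genes, 5 antigen-processing genes and H2-Ke6, which encodes a steroid dehydrogenase and is not an MHC molecule. Peaks were assigned to a member when they overlapped its gene body extended by 5 kb on both sides.

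ATAC-seq maps open chromatin by the sites at which a transposase inserts adapters into DNA. The series held 8 samples, and the 4 used here were C57BL/6 DN3 thymocytes with 1 deposited list of broad peaks each. In 2 libraries the Notch-Myc enhancer (N-Me), a distal element of the Myc gene, was wild type, and in the other 2 its GATA sites 1 and 2 were mutated on both alleles. Age, sex, sorting and further alleles are not given in the labels, nor whether the libraries of a genotype came from separate animals, so the p-values reflect library-to-library spread, which may be technical. The 4 leukaemia samples were not analysed here.

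MHC class I molecules carry peptides made by the proteasome to CD8 T cells and are found on nearly all nucleated cells. Class II molecules carry peptides from the endosomal route to CD4 T cells, and in the mouse they are best known on B cells, dendritic cells, macrophages and thymic epithelium. Tap1 and Tap2 form the peptide transporter of the endoplasmic reticulum, Tapbp (tapasin) bridges it to class I, and Psmb8 and Psmb9 are catalytic subunits of the immunoproteasome. H2-DM loads peptides onto class II, and H2-DO, made from H2-Oa and H2-Ob, restrains H2-DM.

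The lists held 169255 and 156372 peaks in wild type and 121022 and 119023 in the mutant. Their construction differed: peaks of the wild-type lists were never closer than 257 and 261 bp, and those of the mutant lists never closer than 293 and 349 bp. Starts of all 12 DN3 marker genes fixed for the check of the label were called in all 4 libraries. Of markers of cells that carry class II, 5 of 8 B-cell, 5 of 10 dendritic and myeloid and 5 of 8 thymic epithelial genes had a start called in all 4 libraries, where the share over all protein-coding genes was 67.2%. Those called in all 4 were Cd79a, Cd79b, Pax5, Ebf1 and Blk (B cells) and Itgax, Itgam, Spi1, Lyz2 and Flt3 (dendritic and myeloid). For the epithelium they were Epcam, Krt8, Aire, Cldn3 and Cldn4. The starts of Ms4a1 and Cd22 (B cells), Zbtb46, Clec9a and Xcr1 (dendritic cells), and Krt5 and Psmb11 (epithelium) were called in none. Foxn1 (epithelium) had a peak in 1 wild-type library, and Csf1r and Cd68 in both wild-type libraries only. The contribution of such cells to the results below was not tested.

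The promoters of the members were read for the letters of known motifs. RefSeq (GRCm38.p6) listed a promoter window for 36 of the 40 members, 250 bases before the listed start and 50 from it on. No window was listed for H2-Ab1, H2-Q1, H2-T24 or Tap2. The 9 windows printed here are those of the classical class I genes, the class Ib genes H2-Q7 and H2-T22, the class II genes H2-Aa and H2-Eb1, the class II-like gene H2-Ob, and the divergent pair Tap1 and Psmb9. Each is given 5′ to 3′ along the gene's own strand, and capitals mark matches to any of 8 searched motifs on either strand: kappa B (GGGATTCCC), an interferon element (TTCNNTTTC), the X1 box (CCTNGCAAC), the CRE or X2 box (TGACGTCA), the reverse CCAAT box (ATTGG), and the motifs of 3 factor families, spelled out with their results.

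H2-K1 (chr17:34000298-34000597, minus strand): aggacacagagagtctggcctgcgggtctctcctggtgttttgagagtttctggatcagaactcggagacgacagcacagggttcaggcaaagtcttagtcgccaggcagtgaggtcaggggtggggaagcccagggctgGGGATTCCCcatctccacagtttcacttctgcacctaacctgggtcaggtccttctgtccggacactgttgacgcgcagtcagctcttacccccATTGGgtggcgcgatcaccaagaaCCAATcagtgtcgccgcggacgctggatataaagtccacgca
H2-D1 (chr17:35262844-35263143, plus strand): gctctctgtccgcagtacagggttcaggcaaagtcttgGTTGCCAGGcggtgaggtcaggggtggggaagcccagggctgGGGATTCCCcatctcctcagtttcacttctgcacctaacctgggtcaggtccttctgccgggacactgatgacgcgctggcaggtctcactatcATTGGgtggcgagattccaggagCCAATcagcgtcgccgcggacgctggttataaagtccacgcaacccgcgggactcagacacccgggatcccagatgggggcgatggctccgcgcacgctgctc
H2-Q7 (chr17:35438905-35439204, plus strand): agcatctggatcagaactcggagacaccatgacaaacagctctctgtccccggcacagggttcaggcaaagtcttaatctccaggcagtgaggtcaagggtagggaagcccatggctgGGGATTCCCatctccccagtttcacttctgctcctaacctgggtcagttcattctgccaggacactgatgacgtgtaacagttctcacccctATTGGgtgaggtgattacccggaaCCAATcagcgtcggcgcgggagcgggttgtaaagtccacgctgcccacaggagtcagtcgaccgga
H2-T22 (chr17:36042693-36042992, minus strand): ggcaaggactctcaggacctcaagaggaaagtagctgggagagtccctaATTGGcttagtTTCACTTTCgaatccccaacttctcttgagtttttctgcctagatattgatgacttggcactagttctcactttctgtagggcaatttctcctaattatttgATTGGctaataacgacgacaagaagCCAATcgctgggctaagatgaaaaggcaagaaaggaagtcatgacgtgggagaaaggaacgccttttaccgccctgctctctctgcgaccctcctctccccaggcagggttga
H2-Aa (chr17:34287774-34288073, minus strand): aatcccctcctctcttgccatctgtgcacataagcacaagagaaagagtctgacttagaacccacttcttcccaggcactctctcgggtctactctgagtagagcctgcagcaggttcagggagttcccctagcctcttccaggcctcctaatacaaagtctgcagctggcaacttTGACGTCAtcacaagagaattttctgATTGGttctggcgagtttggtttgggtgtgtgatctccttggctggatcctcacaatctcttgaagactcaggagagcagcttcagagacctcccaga
H2-Eb1 (chr17:34305617-34305916, plus strand): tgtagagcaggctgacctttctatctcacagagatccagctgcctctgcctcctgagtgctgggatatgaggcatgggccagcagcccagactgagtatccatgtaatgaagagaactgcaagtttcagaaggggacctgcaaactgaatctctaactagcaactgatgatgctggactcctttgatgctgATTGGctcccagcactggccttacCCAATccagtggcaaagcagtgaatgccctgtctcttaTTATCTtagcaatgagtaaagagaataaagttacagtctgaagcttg
H2-Ob (chr17:34238655-34238954, plus strand): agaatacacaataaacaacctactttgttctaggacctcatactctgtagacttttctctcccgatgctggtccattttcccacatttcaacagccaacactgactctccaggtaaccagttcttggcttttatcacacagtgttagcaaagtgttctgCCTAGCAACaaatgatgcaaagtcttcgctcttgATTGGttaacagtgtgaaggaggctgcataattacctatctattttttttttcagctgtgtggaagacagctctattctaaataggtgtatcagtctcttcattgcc
Tap1 (chr17:34187306-34187605, plus strand): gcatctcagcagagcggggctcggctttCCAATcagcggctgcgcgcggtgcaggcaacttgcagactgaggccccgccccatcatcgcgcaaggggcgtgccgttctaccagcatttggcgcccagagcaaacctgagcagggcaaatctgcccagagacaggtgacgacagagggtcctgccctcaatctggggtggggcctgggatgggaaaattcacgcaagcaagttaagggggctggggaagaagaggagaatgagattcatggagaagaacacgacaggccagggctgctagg
Psmb9 (chr17:34187281-34187580, minus strand): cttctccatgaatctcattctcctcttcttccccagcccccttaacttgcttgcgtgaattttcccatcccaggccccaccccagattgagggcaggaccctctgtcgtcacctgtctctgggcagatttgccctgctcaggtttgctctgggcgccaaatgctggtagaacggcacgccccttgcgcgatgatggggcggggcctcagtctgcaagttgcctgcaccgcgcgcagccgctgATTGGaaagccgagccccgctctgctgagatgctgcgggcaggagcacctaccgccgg

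Positions are counted from the listed start as base 1, with no base 0. They depend on where that start is listed, so near copies can differ in position. The kappa B letters, the site read by Rel-family factors, stood at bases -110 to -102 of H2-K1 and -170 to -162 of H2-D1. They stood at -132 to -124 of H2-Q7 and -172 to -164 of H2-Q6. These 4 were the only members with it, 4 of the 23 class I windows, against 0.39% of 21263 promoter windows of protein-coding genes. The 4 windows are related copies and not independent draws: H2-K1 and H2-D1 were identical at 88.3% of 239 aligned bases, and H2-Q6 and H2-Q7 at 97.7% of 260. The interferon element was found in H2-T22 (bases -190 to -182) and H2-T23, 2 of the 23 class I windows and of all 36 member windows. The share over all windows was 8.15%. Only these exact letters were searched, so variants of the element go unmarked. The letters TTTCACTTCT, for one, stand unmarked in the printed windows of H2-K1, H2-D1 and H2-Q7. An absent match is thus not read as a missing element.

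The reverse CCAAT letters, which form the Y box of class II promoters and are read by the NF-Y complex, were in all 3 class II windows, 4 of 5 class II-like, 20 of 23 class I and 3 of 4 antigen-processing windows. They were in 31 of 36 member windows in all, against 38.2% of all windows. In H2-Aa the CRE letters at bases -74 to -67 lay upstream of ATTGG at -48 to -44, and no other member held the CRE letters (2.23% of all windows). In H2-Ob the X1 letters at -91 to -83 lay upstream of ATTGG at -57 to -53. H2-D1 was the other member with an X1 match (1.8% of all windows), and none of the 3 class II windows had one (0). Only the exact letters were searched: the near match ACTAGCAAC in the printed H2-Eb1 window, also upstream of ATTGG, is not counted. The X1 matches therefore do not tell which classes hold an X box. The letters AGATAA, read by the GATA factors, were in H2-Oa, H2-Eb1, H2-Q2 and H2-M11, 4 of 36 windows beside 9.65% of all. The RUNX motif TGTGGTTT was in Tapbp and H2-Ke6, against 1.61% of all windows. The ETS motif CCGGAAGT was in H2-T3, against 5.15%. Tap1 and Psmb9 are transcribed away from each other from starts 226 bp apart, so their windows share 275 bases, read on opposite strands. A match is a description of the letters in this window and not a measured binding site.

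A start was called in a library when a peak of its list lay within 1 kb of it (for the 4 members with no listed start, of either annotated end). By this measure 29 of the 40 members (72.5%) had a start called in all 4 libraries, beside 67.2% of all protein-coding genes and 73.9% of the 153 other protein-coding genes of the same window. The remaining 11 were called in none of the 4. All 4 class II genes, all 5 class II-like genes and all 5 antigen-processing genes were called in every library, against 14 of 25 class I genes. No member's start was called in 1 genotype only. Over all protein-coding genes, 1.77% had a start called in both wild-type libraries and neither mutant one, and 0.0919% the reverse.

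The class I split followed the subregions of the complex. Both classical genes, H2-K1 and H2-D1, and all 6 Q-region genes (H2-Q1, H2-Q2, H2-Q4, H2-Q6, H2-Q7 and H2-Q10) were called in every library. So were 4 of 5 T-region genes, H2-T22, H2-T23, H2-T24 and H2-T-ps, which the gene table lists as protein-coding. H2-T3, which encodes the thymus leukaemia antigen, was not called, and its nearest peak lay 2.34 to 2.46 kb from its start in the 4 lists. Of 12 M-region genes 2 were called, H2-M3, which presents N-formylated peptides, and H2-M5. The H2-M5 call rests on a peak 688 to 773 bp from the start, and a window of 250 bp leaves 13 class I genes called.

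The uncalled M-region genes, among them the H2-M10 family known from sensory neurons of the vomeronasal organ, had no peak within 1 kb of a start in any list. H2-M10.2 had the closest in wild type 1 and mutant 2, 6.61 and 6.66 kb from its start. Its nearest peak lay 9.24 and 9.26 kb away in wild type 2 and mutant 1, where H2-M10.5 had the closest. In the 5 kb flank of H2-M10.2, 1 region was held by wild type 1 (fold 3.39) and mutant 2 (2.18). The nearest peak was 8.19 to 8.33 kb from the start of H2-M10.5, 10.1 to 10.3 kb from H2-M10.1, 30.4 to 30.5 kb from H2-M10.4 and 115 kb from H2-M11 in each. The 531 kb from H2-M10.2 to H2-M10.6 held 3.58 consensus regions (the merged union of the 4 lists) per 100 kb. The figure was 26.9 for the K and class II segment, 24.1 for the D and Q segment, 20.9 for the T segment and 17.2 for the whole window. Of the 17 olfactory receptor genes in the window, 2 had a start called in all 4 libraries and 15 in none.

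Called and uncalled class I promoters also differed in base composition, which the call did not use. The 12 called class I windows held 4 to 19 CpG dinucleotides (median 9), and the 11 uncalled ones 0 to 5 (median 2), so that the ranges overlap only at 4 and 5. The median over all promoter windows was 13. Both sets hold related copies and not independent draws: uncalled H2-M10.3 and H2-M10.5 were identical at 95.2% of 292 aligned bases, and called H2-Q6 and H2-Q7 at 97.7% of 260. The 3 class II windows held 0 to 3 CpG and were called all the same, while the 4 antigen-processing windows held 11 to 17.

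**Figure D1:**
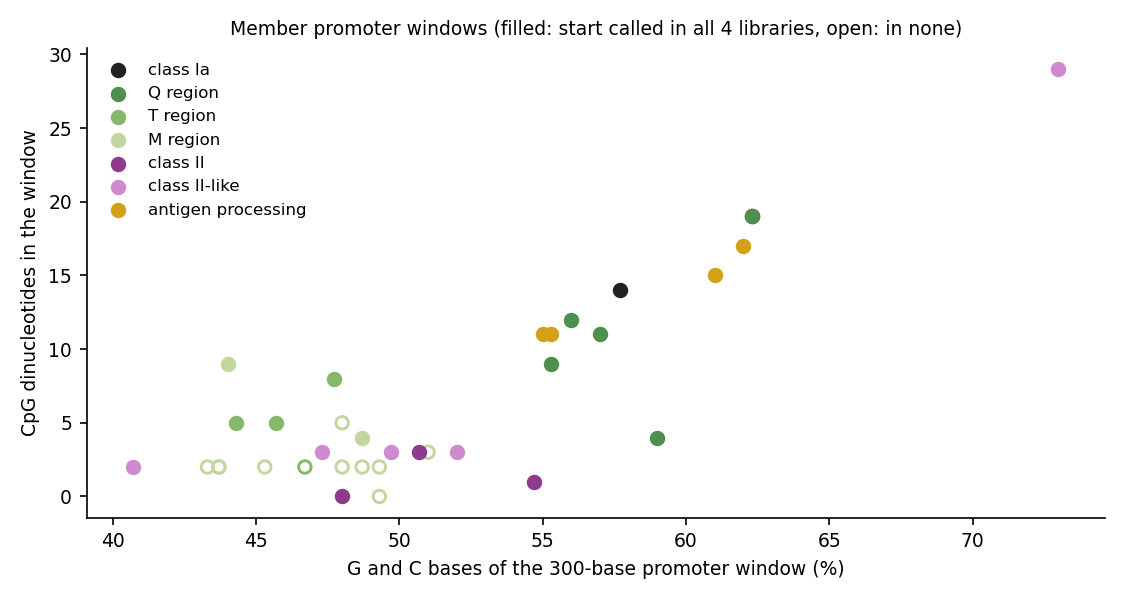
CpG dinucleotides against the percentage of G and C bases in the 300-base promoter window of members with a listed start, coloured by subgroup, with filled points for starts called in all 4 libraries and open points for starts called in none. The open class I points sit at 5 CpG or fewer, and the filled class II points are as low in CpG, at 0 to 3. H2-D1 and H2-Q10 coincide at 19 CpG.

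Fold enrichment here is the authors' value for a peak, the signal over the local background averaged along the peak, and it describes a peak within its own list. For each called start the peak of highest fold within 1 kb is given, in the order wild type 1, wild type 2, mutant 1, mutant 2. The median over all called protein-coding starts was 6.22, 6.01, 5.35 and 5.55.

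Among the classical class I genes, which present peptide on all tissues, H2-K1 had fold 4.16, 4.25, 4.11 and 4.09. H2-D1 had 4.27, 4.24, 3.92 and 3.89. Both sat below the median start in every list, on peaks 1983 to 2201 bp wide that covered the start base. In both genes the mutant lists had the lower values, as they had for the median start.

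Of the class Ib genes, H2-Q7, which encodes the non-classical molecule Qa-2, had fold 6.77, 6.36, 6.08 and 6.05. H2-M3 had 6.69, 6.88, 6.11 and 5.90. These 2 stood above the classical genes in each list. H2-T22, a ligand of some gamma delta T-cell receptors, had 5.58, 5.67, 5.27 and 5.39, with the start of Gm6034 within 1 kb. H2-T-ps had 5.45, 5.47, 4.82 and 4.79. H2-T24 had 4.94, 5.0, 4.21 and 4.43. These 3 genes of the T region lay between H2-Q7 and the classical genes in each list.

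H2-T23, which encodes Qa-1, the ligand of the NKG2A receptor, had 5.03, 4.2, 4.08 and 3.95. H2-Q4 had 5.14, 5.11, 4.80 and 4.56. H2-Q6 had 4.47, 4.15, 4.14 and 3.71. Its first value is that of a 620 bp peak 760 bp from the start, in place of peaks of 1695 to 1801 bp over the start. The other called class Ib genes, H2-Q1, H2-Q2, H2-Q10 and H2-M5, ranged from 1.94 to 4.4, and H2-Q1 was lowest in each list. Promoters of this family are near copies of each other, and how reads that map to several copies were treated is not given in the sources used here, so values of single Q- and T-region genes are uncertain.

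All 4 class II genes had narrow start peaks, and the 2 I-A genes had the highest folds among them. H2-Aa, the alpha chain of the I-A molecule, had fold 7.34, 7.39, 7.21 and 7.10. At the starts used here this was the highest peak of any member in every list. H2-Ab1, the I-A beta chain, had 7.06, 6.71, 6.00 and 6.47. Both were above the median start of each list. Their peaks were 451 to 577 bp wide.

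H2-Eb1 encodes the beta chain of I-E. The peak over its start had fold 6.69, 5.73, 4.43 and 4.05, and a second peak 645 bp upstream had 5.42, 4.91, 4.81 and 4.68. At the start itself both wild-type values exceeded both mutant values, and at the upstream peak the same order held over a narrower range. H2-Eb2, a second E beta gene, had 5.81, 4.44, 3.06 and 3.71, below the median start in every list, and its peak covered the start base in 3 of the 4 lists. Fold is scaled within a list, so these orders are given without a test.

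Of the class II-like genes, H2-DMb1 had 6.66, 5.49, 6.73 and 6.62, the highest of this group in each list. H2-DMa, which encodes its partner chain, had 3.52, 3.75, 2.59 and 2.70. The H2-DMa start lies within 1 kb of that of Brd2, and its peak was 749 and 1095 bp wide in wild type but 4499 and 4825 bp in the mutant lists. A wider peak averages its fold over more bases, and the lists joined neighbouring peaks over different gaps, so the H2-DMa values are not comparable. Whether this peak belongs to H2-DMa or to Brd2 was not tested. A stronger region further inside the annotated gene, described below, lies outside the start windows and does not enter these ranks or the medians. H2-DMb2 had 2.37, 2.38, 2.38 and 2.29, with a peak over the listed start base in 1 list only. The annotated left end of this plus-strand gene lies at base 34143229, upstream of the listed start. A region over that end (chr17:34142779-34143647) was held by all 4 libraries, with fold 5.22, 4.92, 4.0 and 5.43.

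For the H2-DO chains, H2-Oa had 3.01, 2.86, 2.42 and 2.66, and H2-Ob 3.05, 3.24, 2.94 and 3.47. Both were above H2-DMb2 and below H2-DMb1 in every list, and the H2-Ob values overlap between genotypes. The H2-Oa values come from unlike peaks and are not comparable between genotypes. In wild type these were peaks of 637 and 628 bp over the start. Mutant 1 had a 1728 bp peak over it, and mutant 2 a 641 bp peak 938 bp from it.

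Among the antigen-processing genes, Tap1 and Psmb9 share 1 peak across both divergent starts, with fold 5.55, 4.91, 4.91 and 4.77. Tapbp had 3.13, 3.14, 3.08 and 3.02. Psmb8 had 3.34, 3.53, 3.04 and 3.11. Tap2 had 2.41, 2.58, 1.95 and 3.04, where the last value is that of a 503 bp peak in place of peaks of 1802 to 2097 bp in the other lists. The shared Tap1 and Psmb9 peak was the highest of this class in every list, and the 5 genes had medians of 3.34, 3.53, 3.08 and 3.11.

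By class, the medians for the 4 class II genes were 6.88, 6.22, 5.40 and 5.57, and for the 14 called class I genes 4.71, 4.25, 4.17 and 4.02. For H2-Eb1 the highest-fold peak used here was the one over the start in wild type and the upstream one in the mutant lists. Class II was above class I, and class I above antigen processing, in each of the 4 lists. The 5 class II-like genes had medians of 3.05, 3.24, 2.59 and 2.70. In both mutant lists this median is the H2-DMa value itself, from the wide peak called not comparable above. The 9 genes of both groups together had medians of 5.81, 4.44, 3.06 and 3.71, in each list the H2-Eb2 value. These were above class I in the wild-type lists and below it in the mutant lists. With H2-DMa ranked by a peak that is not comparable, this change of order is not read as a difference between genotypes. The ranges overlap in every list: in mutant 1 the class II genes ran from 3.06 to 7.21 and the called class I genes from 2.07 to 6.11. The widths did not overlap between class II, at 285 to 577 bp, and the classical class I genes, at 1983 to 2201 bp. Fold is an average along the peak, so the order by fold and the order by width are not independent measures.

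**Figure D2:**
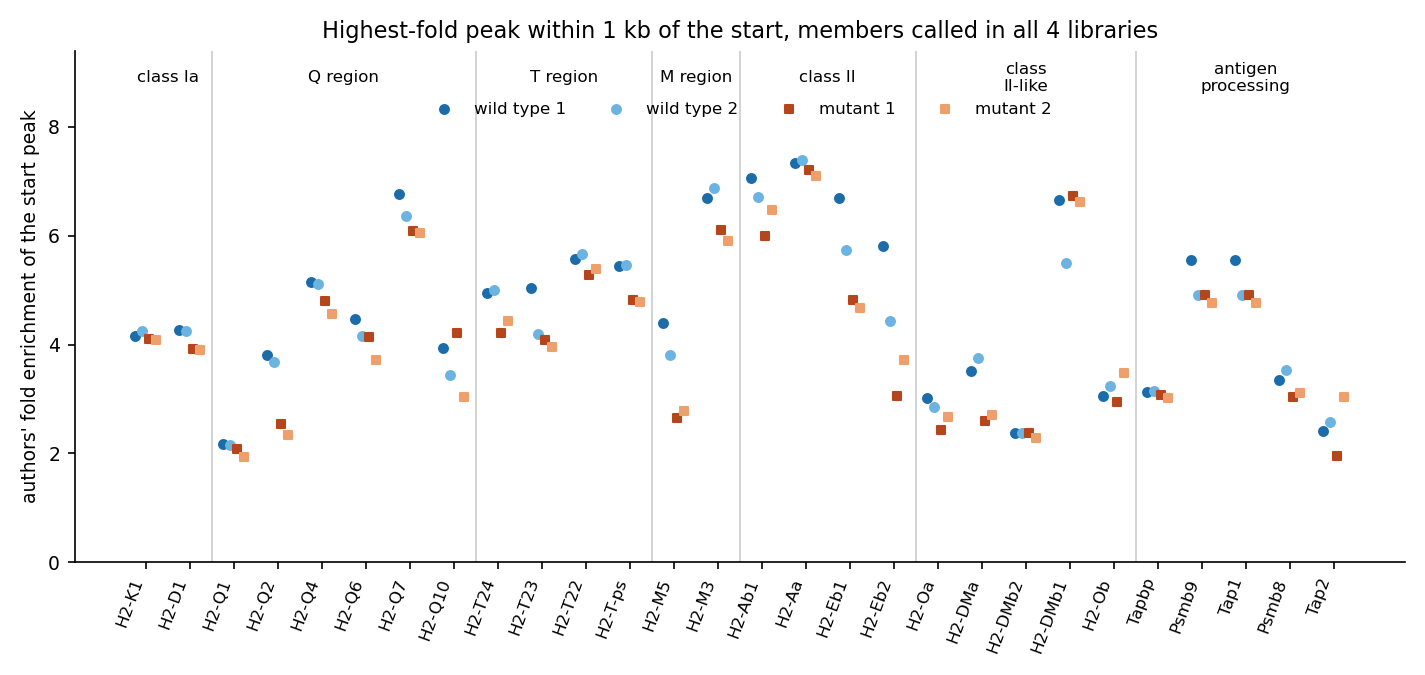
Authors' fold enrichment (vertical axis) of the highest-fold peak within 1 kb of the start for members called in all 4 libraries, in order along the chromosome within each subgroup, with circles for wild type and squares for the mutant. H2-Aa has the highest value in each library, H2-K1 and H2-D1 sit near 4, and H2-Eb1 and H2-Eb2 show the widest spread between libraries among class II genes. The H2-Eb1 points are the peak over the start in wild type and the upstream peak in the mutant.

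**Figure D3:**
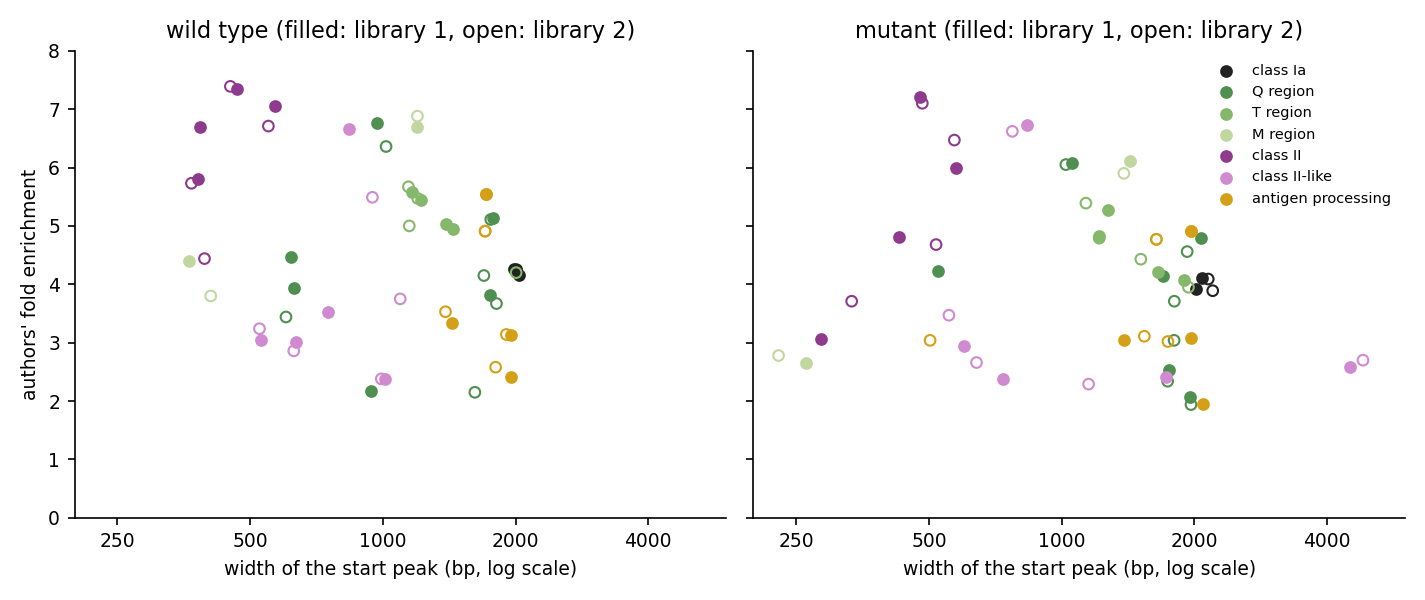
Authors' fold enrichment against the width of the start peak (log scale) in the wild-type lists (left) and the mutant lists (right), coloured by subgroup. Class II peaks sit at widths of 285 to 577 bp, the classical class I peaks at 1983 to 2201 bp, and the 2 H2-DMa peaks of the mutant lists lie alone above 4000 bp. For H2-Eb1 the mutant panel shows the upstream peak in place of the one over the start.

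Around the members, the 4 lists merged into 128 regions. Of these, 88 (68.8%) held a peak of all 4 libraries, beside 56.7% of all consensus regions. At the starts it was 33 of 34 regions. The same share over the start regions of all genes was not computed. Of the 21774 protein-coding genes, 14628 had a start called in all 4 libraries and 6063 in none. Starts called in only some libraries were thus a minority over all genes too. Of the 103 member regions held by both wild-type libraries, 10 (9.71%) had no mutant peak, beside 15% of all such regions. Of the 93 held by both mutant libraries, 4 (4.3%) had no wild-type peak, beside 1.75% of all such regions. The first share lies below its background and the second above it, and the second rests on 4 regions. Neither order holds under every setting. With peaks of fold 4 or more only, 22% of the wild-type regions had no mutant peak, beside 19.7% of all. The mutant-only share was 5.38% beside 6.99% with the same number of peaks from each list, and 4.55% beside 7.46% when peaks had to cover 50% of a region. The counts also move with the lists: without the second wild-type library 23 regions were called in wild type only, with the same number of peaks from each list 4, and with no flank 6, when none of the mutant-only regions was left (0).

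None of the regions found in 1 genotype only overlapped the window of a member's start, and their folds ran up to 3.82. By class, 5 of the 10 wild-type regions were at class I genes, 2 at class II and class II-like genes and 3 at antigen-processing genes. The 5 of highest lower fold were a 115 bp region in the Psmb9 flank (fold 3.38 and 3.01), a 115 bp region in the H2-Ob flank (3.82 and 2.92), a 544 bp region in the H2-Q2 flank (2.36 and 2.47), a 138 bp region within H2-Q10 (2.06 and 2.04) and a 317 bp region within H2-T24 (2.15 and 2.03). The lists' shortest peaks measured 64 and 65 bp (wild type) against 73 and 87 bp (mutant). All 5 named regions were longer than these. With 1 shared joining gap and shortest length for all lists, 8 regions were called in wild type only. The part played by peak length was not tested.

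All 4 mutant regions lay in flanks. A pair was upstream of H2-Oa, at chr17:34086931-34087598 (fold 2.04 and 2.24) and chr17:34088291-34088938 (2.24 and 2.1). Another was in the Psmb9 flank, at chr17:34181052-34181243 (2.11 and 2.23), and the last in the H2-Q2 flank, at chr17:35337837-35338159 (1.92 and 2.23). No value of these 4 regions exceeded 2.24, while the start peaks of the same 3 genes had folds of 2.34 to 4.91 in the mutant lists.

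**Figure D4:**
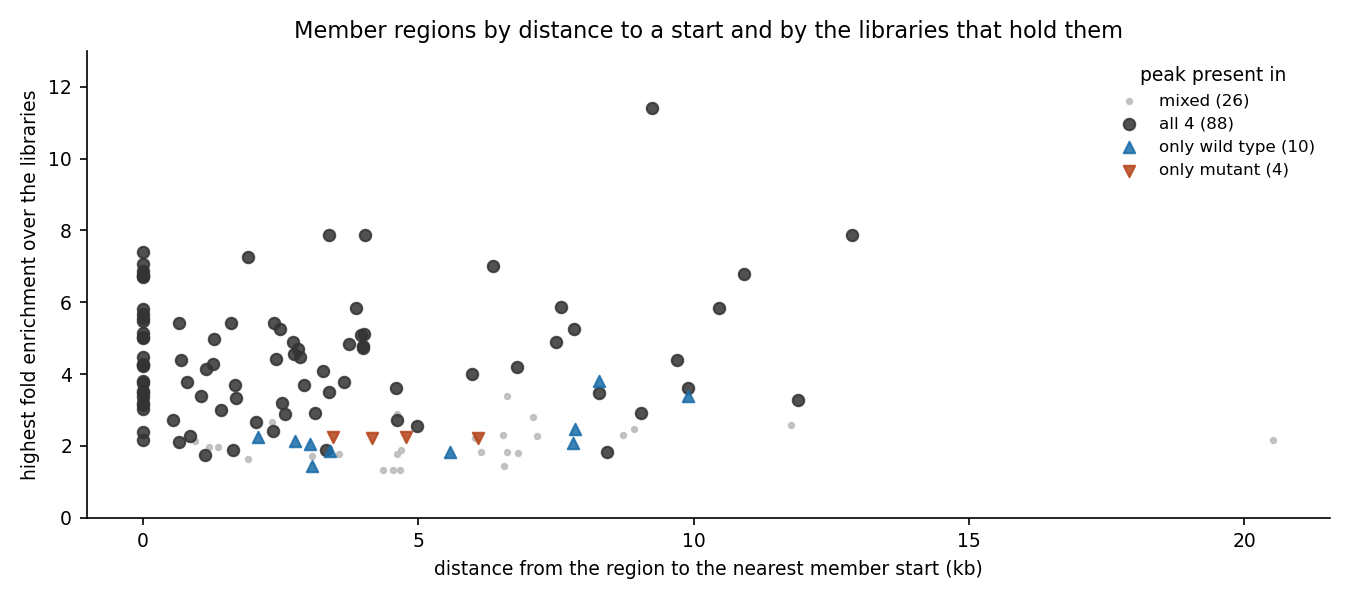
Highest fold enrichment over the libraries (vertical axis) of the 128 member regions against their distance in kb from the nearest member start, with symbols for the libraries that hold a peak there. Regions of all 4 libraries cover the whole range up to 11.40, whereas the 10 wild-type-only and 4 mutant-only regions lie below 4 and away from distance 0.

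The strongest member region was not at a listed start. It lay within the annotated H2-DMa gene at chr17:34135299-34135999, 9250 bp from the nearest listed member start, that of H2-DMb2, and had fold 11.40, 10.73, 8.95 and 9.76. No other protein-coding start was listed within 1 kb. In each list it exceeded the H2-Aa start peak. The table gives H2-DMa a span of 19409 bp with listed starts at bases 34122832 and 34125518, so whether the region lies at a further start of the gene was not tested. The exon or intron that it covers was not analysed here.

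Other strong regions away from starts were also held by every library. Within H2-Eb2, 4033 bp from its start, a region had fold 7.87, 7.75, 7.27 and 6.91, above the H2-Eb2 start peak in each list. A region 3372 bp upstream of H2-Ob had 7.87, 7.16, 5.81 and 6.34, and one 3868 bp upstream of H2-Aa had 5.85, 5.32, 4.74 and 4.69. Among antigen-processing genes the strongest region, at chr17:34218227-34219466, lay 1906 bp from the nearer annotated end of Tap2 and had 6.36, 5.43, 6.83 and 7.27. For class I it was a region at chr17:37002412-37003419 in the H2-M5 flank, with 7.53, 6.38, 7.47 and 7.86, which lies within 1 kb of the start of Zfp57, a zinc-finger gene that is no member.

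In amount, the member areas, 599 kb in all, held 134 and 116 peaks in wild type and 101 in each mutant library. The means were 125 ± 12.7 and 101 ± 0 (SD, n = 2 libraries each). The difference of -24 had p = 0.33 in an exact two-sided permutation test, the smallest p that 2 against 2 libraries can give. When the lists were given 1 shared joining gap and shortest length, the difference was -11.5 (p = 0.67, exact permutation test), with the same number of peaks from each list -6.5, and without the first wild-type library -15. The ratio of wild type to mutant was 1.24 at the members and 1.36 over the whole lists. Covered length ran the other way: 75624 and 75194 bp in wild type and 82214 and 78908 bp in the mutant, with means of 75409 ± 304 and 80561 ± 2338 bp (exact permutation p = 0.33, also the smallest possible). With peaks of fold 4 or more only, the difference in covered length turned to -7368 bp, and with the shared gap and shortest length it was 2502 bp (exact permutation p = 0.67). Peaks covered 12.5% to 13.7% of the member areas in the 4 libraries.

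**Figure D5:**
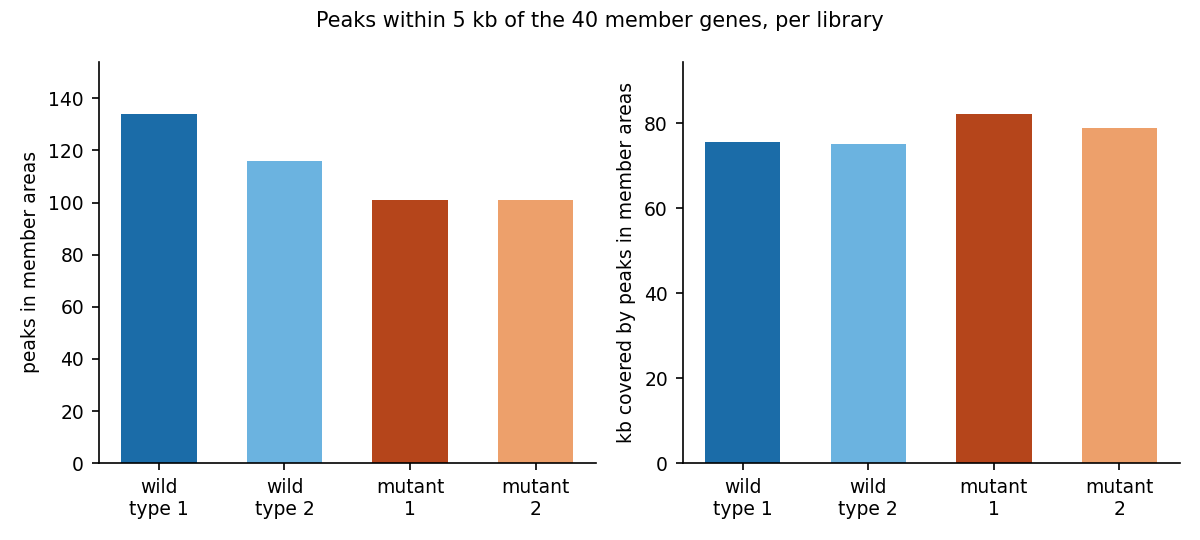
Number of deposited peaks (left) and kb covered by them (right) within 5 kb of the 40 member genes, 1 bar per library. Both wild-type libraries hold more peaks than the mutant libraries, at 134 and 116 against 101 each, and cover less length, at 75.6 and 75.2 kb against 82.2 and 78.9 kb.

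Genes of antigen presentation outside the window were mostly called as well. All 9 class I partners and loading factors had a start called in all 4 libraries, among them B2m, the light chain of class I, with fold 4.77, 4.81, 3.96 and 3.97. All 5 class II partners were called, and Cd74, the invariant chain, had 2.69, 2.52, 2.00 and 2.23, below all 4 class II genes in each list. Of 15 regulators 14 were called in all 4 libraries, beside the 67.2% of all genes. Nlrc5, the transactivator of class I genes, had 8.65, 8.15, 6.90 and 6.85, and Rfx5, a subunit of the complex that binds the X box, had 9.38, 8.24, 7.73 and 6.76.

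Ciita, the master transactivator of class II genes, was the exception. RefSeq listed no promoter window for it here, and neither annotated end had a peak within 1 kb in any list. Within the gene (chr16:10480014-10531064) the lists merged into 8 regions, 6 of them in all 4 libraries. The one nearest to the gene's left end, at chr16:10488800-10490463, had fold 7.29, 6.37, 6.95 and 5.10, and a region at chr16:10501754-10502246 had 7.68, 6.97, 5.36 and 4.70. Peaks mark open chromatin, and no transcript or protein was measured in these libraries.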

How the data were processed

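Broad peaks had been called by the authors in each library separately. The submitters' processing notes name Bowtie2 2.3.3.1, cutadapt 1.16, MACS2 2.1.1 and SAMtools 1.7, and build mm10 (GRCm38). Their order and settings, the handling of multiply mapped or duplicate reads and any shift for the transposase were not given in the sources used here. Each deposited peak has a score (a multiple of −log10 q, truncated), a fold enrichment (a ratio to the library's own background), and −log10 p and q values. These describe a peak within its list and were used only to describe, rank or filter. Peak lists hold no reads, so depth is unknown and no count model applies, and a missing peak means not detected at that library's depth.

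Peaks outside chromosomes 1 to 19, X and Y, 0.112% to 0.131% of a list, were dropped. Gene positions, starts and sequences came from RefSeq tables of GRCm38.p6. A start was listed for 36 members, and either annotated end stood in for the other 4 (80.3% of all protein-coding genes had a listed start). A consensus region is the merged union of the 4 lists, and a library has it when a peak overlaps it by 1 bp or more. Only in wild type means both wild-type libraries and no mutant one, and the reverse for the mutant.

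All class Ia, class II, class II-like and antigen-processing members are named. Class Ib genes called in all 4 libraries are named, with values for the 8 of highest lowest fold. So are, for each genotype, the 5 regions seen in it alone whose lower fold ranks highest. The members, lists and rules were chosen with earlier results of these data known. Promoter identity was taken over the aligned bases of a global alignment with free end gaps. The value of 1 B-cell marker is not reported here. The counting code was tested on simulated lists. Python 3.11.15, numpy 2.4.6, pandas 2.3.3 and Biopython 1.88 were used.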

Additional observations from a re-analysis of the deposited data

How the results depend on the processing

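Each of the 7 results was recomputed under 1 changed setting at a time. With peaks of fold 4 or more only, starts called in all 4 libraries fell to 7 class I, 4 class II and class II-like and 2 antigen-processing genes, 1 member region was called only in the mutant, and the difference in covered length turned from 5152 to -7368 bp (exact permutation p = 0.33). With peaks of −log10 q of 5 or more, the count of wild-type-only regions was 4 and that of mutant-only regions 2. The same number of peaks from each list left 4 wild-type-only regions, and a flank of 0 kb left 6, with 0 only in the mutant. Leaving out 1 library at a time gave 11 to 23 wild-type-only regions, the most without wild type replicate 2. With a replicate block, the paired differences were -24 peaks and 5152 bp, each with exact p = 0.5, the smallest that 2 pairs can give. The replicate numbers are not stated to mark shared animals or days, so the block is only a check. Under the other alternatives the 3 start counts stayed within 1.5 times, and the difference in peak number stayed negative, from -33 to -6.5. The unknown depth limits every absent peak, and the lists' different joining and minimum lengths move with genotype, so the 2 cannot be told apart.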

Other observations

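H-2 pseudogenes, which the rule left out, were also read from the lists, with either annotated end as start. H2-K2, H2-Pb, H2-Q3, H2-Q5, H2-Bl, H2-T10 and H2-M6-ps had a peak within 1 kb of an end in all 4 libraries. H2-T10 had fold 5.07, 5.24, 3.68 and 5.0 in the order wild type 1, wild type 2, mutant 1, mutant 2, and H2-Q5 had 4.63, 5.38, 4.83 and 4.48. H2-Ea, the alpha-chain partner of H2-Eb1, and H2-M10.5-ps1 had none in any library. H2-M4-ps had a peak in both wild-type lists (fold 2.07 and 2.0) and in neither mutant list, and H2-Pa in wild type 1 only (2.17). The H2-M4-ps peaks form a region in the H2-M5 flank that is already counted among the wild-type-only member regions. That region also lies within 1 kb of the start of 2410137M14Rik. The overlap of covered bases in the member areas (Jaccard index) was 0.859 between the wild-type libraries and 0.85 between the mutant libraries, against 0.756 to 0.791 between genotypes. The index over the whole lists was not computed, so whether this order is particular to the members is not known. The lists also differ by genotype in peak number and joining gap throughout.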
